A study of Mus musculus with 32 samples.

Results

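The 10 genes described here encode the enzymes that write, copy and remove DNA methylation: Dnmt1, Dnmt3a, Dnmt3b, Dnmt3l, Uhrf1, Uhrf2, Tet1, Tet2, Tet3 and Tdg. They were taken by symbol from 31053 counted genes, and all 10 were among the 15280 that passed the filter on low counts. They were followed in 32 libraries made from C1, a line of mouse embryonic stem cells (ESCs). C1 cells lack endogenous β-catenin (β-catenin-/-) and carry lentiviral constructs: an EF1a promoter drives the rtTA transactivator, and a doxycycline-responsive promoter drives β-catenin S33Y fused to mCherry and a destabilising domain. Doxycycline (dox) starts transcription of the fusion and trimethoprim (TMP) stabilises the protein. All groups came from this genotype, from cultures kept in 2i/L for 3 passages and exposed to 10 μM TMP for 48 h before sorting. The study's methods state that only cells from 2i/L culture were used for the RNA sequencing, and they are followed here. The growth protocol in the labels instead names a medium with serum and LIF. C1 received TMP only and was sorted as living cells. C1M and C1H also received 100 ng/mL dox and were sorted for middle and high mCherry, so dox exposure and the mCherry gate differ from C1 together with β-catenin and cannot be told apart from it. Sorted cells were then held for 4 days in NDiff227 medium: C1T with TMP, C1MV and C1HV with DMSO in place of both inducers (withdrawn), and C1MDT and C1HDT with dox and TMP (constant). Each of the 8 groups had 4 libraries labelled as biological replicates. Nothing in the labels says that these came from separate sorts, so the p-values measure the spread between these libraries.

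DNMT3A and DNMT3B place methyl groups on unmethylated CpG sites, and DNMT3L, which is catalytically inactive, stimulates them. UHRF1 binds hemimethylated DNA behind the replication fork and brings in DNMT1, which copies the mark to the new strand. UHRF2 is its paralog. TET1, TET2 and TET3 oxidise 5-methylcytosine, and TDG excises the oxidised bases before base excision repair. ESCs in 2i/L are known for low global methylation and for high Tet1 and Tet2, and the passage to a primed, epiblast-like state is known for induction of Dnmt3a and Dnmt3b. Protein, catalytic activity and methylation were not measured here, only polyadenylated RNA.

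In GRCm38 the de novo genes lie at chr12:3806007-3914443 (Dnmt3a), chr2:153649450-153687730 (Dnmt3b) and chr10:78041947-78063622 (Dnmt3l), all on the plus strand. The maintenance genes lie at chr9:20907209-20959888 (Dnmt1, minus strand), chr17:56303321-56323486 (Uhrf1, plus) and chr19:30030513-30093722 (Uhrf2, plus). The demethylation genes lie at chr10:62804570-62908996 (Tet1), chr3:133463679-133545139 (Tet2) and chr6:83362373-83459084 (Tet3), all minus, and chr10:82629828-82650799 (Tdg, plus). All 10 are annotated as protein-coding. The start regions of these genes differ widely in CpG content, which is shown because the enzymes act on CpG and their own starts can carry the mark. The RefSeq table held 17 starts for the 10 genes. In the 250 bases before each start (GRCm38.p6, written 5′ to 3′ with CG in capitals) the count of CpG ran from 2 to 51, against a median of 6.0 and quartiles of 2.0 and 16.0 over 32841 windows. The window before Tet2 (chr3:133544391-133544640, minus strand) held 51, more than 99.9% of all windows. The window before Dnmt3b (chr2:153649199-153649448, plus strand) held 21. The first of 3 Dnmt3a starts (chr12:3806730-3806979, plus strand) held 38, and the others held 40 and 15. The 3 Dnmt3l starts held 5, 4 and 3, more than 29% to 44.4% of all windows, and the middle window is printed (chr10:78049592-78049841, plus strand). None of the 4 windows printed overlaps an annotated exon of its gene.
Tet2: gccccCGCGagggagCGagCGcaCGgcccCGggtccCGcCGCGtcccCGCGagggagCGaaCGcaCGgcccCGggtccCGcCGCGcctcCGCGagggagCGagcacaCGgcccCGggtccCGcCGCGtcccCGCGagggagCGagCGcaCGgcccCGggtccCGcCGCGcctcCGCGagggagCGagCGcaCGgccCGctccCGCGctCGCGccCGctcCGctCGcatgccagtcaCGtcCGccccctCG
Dnmt3b: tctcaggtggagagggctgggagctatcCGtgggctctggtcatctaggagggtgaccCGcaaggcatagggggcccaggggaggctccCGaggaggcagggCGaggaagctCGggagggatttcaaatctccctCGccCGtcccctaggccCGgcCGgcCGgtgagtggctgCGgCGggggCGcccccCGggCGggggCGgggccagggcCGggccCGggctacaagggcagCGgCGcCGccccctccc
Dnmt3a: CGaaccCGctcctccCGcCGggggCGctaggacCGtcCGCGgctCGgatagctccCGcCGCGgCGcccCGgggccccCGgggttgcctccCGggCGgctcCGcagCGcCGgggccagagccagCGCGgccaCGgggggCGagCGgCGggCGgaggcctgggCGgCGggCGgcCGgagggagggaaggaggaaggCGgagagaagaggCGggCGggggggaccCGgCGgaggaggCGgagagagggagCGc
Dnmt3l: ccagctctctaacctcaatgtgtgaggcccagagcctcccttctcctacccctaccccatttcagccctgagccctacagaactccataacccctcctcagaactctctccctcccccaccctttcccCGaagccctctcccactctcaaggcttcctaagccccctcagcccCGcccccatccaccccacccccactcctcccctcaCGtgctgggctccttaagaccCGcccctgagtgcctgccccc
The core motif of TCF/LEF factors, which bind β-catenin, was searched as CTTTGA on either strand. It stood in 13.8% of all windows and in 1 of the 17 member windows, 198 bases before a Dnmt1 start. This says only where these letters occur. The 3′ reads do not tell which start a transcript came from.

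Each library held 1366951 to 3648787 reads on genes (median 2402468), and 3 reads were worth 0.822 to 2.19 CPM (a gene's reads relative to the library's total after TMM scaling). Reads from this protocol come from the 3′ end of each transcript, so levels are compared between groups and not between genes. The share of reads outside annotated genes was 9.03% to 11.24% in the day 0 groups and 4.72% to 6.83% in the day 4 groups. Its part in the day 4 changes was not tested. Ctnnb1, the β-catenin gene, was 5.19 to 11.0 CPM in C1, 9.45 to 17.7 in C1M and 34.9 to 48.7 in C1H. It was 7.18 to 12.4 CPM in C1T, 4.13 to 12.1 in the withdrawn groups and 25.4 to 36.3 in the constant groups. Transcript above C1T was thus present where the labels place it. The fractions overlapped at day 4: 6.90 to 12.1 in C1MV against 4.13 to 8.60 in C1HV. Under constant induction it was 25.4 to 34.05 in C1MDT against 28.25 to 36.3 in C1HDT. Middle and high groups were therefore not separated by this transcript at day 4. C1M did not pass the test against C1 for this gene (log2 fold change 0.61, FDR 0.0551), and C1H did (2.37, FDR 6.33e-20). Axin2, a β-catenin target gene, was called in neither, at 0 to 10 reads per library in these 3 groups. Its mean was 1.01 CPM in C1, 2.22 in C1M, 1.78 in C1H and 3.38 in C1T. The false discovery rate (FDR) is the Benjamini-Hochberg adjusted p of edgeR's quasi-likelihood test over 15280 genes, and a gene is called below 0.05. Naive pluripotency markers (Zfp42, Nanog, Esrrb, Klf4, Tfcp2l1, Tbx3 and Klf2) summed to 5674 to 5918 CPM in C1, 4190 to 4561 in C1M and C1H, and 338 to 1188 at day 4. The sums of other markers are given beside their calls. Epiblast markers summed to 70.4 to 96.9 CPM in C1 and 105 to 129 in C1M (85.7 to 102.5 in C1H), endoderm markers to 6.22 to 12.2 in C1 and 14.4 to 21.3 in C1M and C1H, mesoderm markers to 53.2 to 60.2 in C1 and 32.3 to 46.0 in C1M and C1H, and fibroblast markers to 7.26 to 9.05 in C1 and 13.0 to 19.8 in C1M and C1H. In C1M against C1 the test called 3 of 4 epiblast, 1 of 5 endoderm and 1 of 4 fibroblast markers higher (14.3% of all genes). It called 2 of 3 mesoderm markers lower (12.0% of all genes). In C1H against C1 it called 2 of 4 epiblast, 0 of 5 endoderm and 1 of 4 fibroblast markers higher (13.8% of all genes). There 1 of 3 mesoderm and 1 of 4 fibroblast markers were called lower (12.1% of all genes). Trophectoderm markers summed to 8.30 to 22.0 CPM at day 0 and 1.12 to 6.45 at day 4, when fibroblast markers were 1.92 to 14.2. The part of these markers in the differences of the methylation genes was not tested.

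At day 0, 5 of the 10 genes were called in C1M against C1 and 6 in C1H against C1, and every call was lower. Over all tested genes, 26.3% were called in C1M and 25.9% in C1H, of which lower calls made up 12.0% and 12.1% of tested genes. In C1H against C1M 0 members were called, with 1 at an unadjusted p below 0.05 and 0 by DESeq2, where 1.77% of all genes were called. Without C1M replicate 3 that count was 1 (Tet1). From day 0 to day 4, 8 members were called in C1T against C1, 7 in C1MV against C1M, 7 in C1MDT against C1M, 6 in C1HV against C1H and 9 in C1HDT against C1H. The shares of all genes called in those comparisons were 49.2%, 45.8%, 52.4%, 47.0% and 55.7%, so about as many genes moved as did not. At day 4 against C1T, 5 members were called for C1MV, 5 for C1MDT, 7 for C1HV and 7 for C1HDT, against 30.2%, 33.4%, 28% and 33.5% of all genes. All 5 calls in C1MV and all 5 in C1MDT were lower, where 14.9% and 16.5% of all genes were called lower. The count for C1HV was 4 without C1T replicate 1, C1HV replicate 1 or C1HV replicate 3. These 4 comparisons share the C1T libraries and are not independent of each other. Constant against withdrawn induction called 4 members in the middle fraction and 5 in the high fraction, against 12.6% and 15.9% of all genes. Between fractions at day 4, 0 members were called in C1HV against C1MV (2 at an unadjusted p below 0.05) and 0 in C1HDT against C1MDT (0 at that level), with 0 by DESeq2 in each. Few genes of any kind were called there: 0.00654% and 0.00%.

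Dnmt3a was low at day 0 in all groups, rose at day 4 in all groups, and stood highest in C1T. Its level in the 4 libraries was 47.8, 51.5, 46.2 and 39.7 CPM in C1, 45.4, 39.4, 47.2 and 42.5 in C1M, and 46.0, 51.6, 36.6 and 50.4 in C1H. These 3 groups overlapped, with uncalled log2 fold changes of -0.08 (SE 0.11) in C1M and -0.00 (SE 0.11) in C1H against C1. In C1T Dnmt3a reached 793, 747, 875 and 776 CPM, 17.3-fold above C1 (log2 fold change 4.11, SE 0.094, FDR 1.88e-83). The withdrawn libraries read 148, 154, 143 and 171 CPM in C1MV and 164, 179.7, 171 and 197 in C1HV. Constant induction gave 267, 294, 287 and 294 CPM in C1MDT and 269.6, 252, 293 and 249 in C1HDT. Every library of these 4 groups lay below the lowest C1T library. Against C1T Dnmt3a was 5.21-fold lower in C1MV (log2 fold change -2.38, SE 0.080, FDR 1.26e-60), 4.50-fold lower in C1HV (-2.17), 2.79-fold lower in C1MDT (-1.48) and 3.00-fold lower in C1HDT (-1.59). It was thus higher under constant than under withdrawn induction, by 1.87-fold in the middle fraction (0.90, SE 0.081, FDR 1.75e-18) and 1.498-fold in the high fraction (0.58, SE 0.081, FDR 3.91e-09), with no overlap of libraries. The rise from day 0 to day 4 was smaller than that of C1 to C1T in each of the 4 series, with log2 differences of -2.30 (C1MV), -1.40 (C1MDT), -2.17 (C1HV) and -1.58 (C1HDT), with FDR between 2.44e-32 and 1.21e-16 in this test of the difference itself. Such differences were called for 22.5%, 24.4%, 21.9% and 25.2% of all genes.

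Dnmt3b also rose at day 4 in every group, but here the constant groups overlapped C1T and the withdrawn groups lay below it. At day 0 it read 35.2, 37.34, 30.1 and 21.5 CPM in C1, 20.4, 17.7, 22.8 and 21.4 in C1M, and 23.5, 24.4, 15.4 and 20.6 in C1H. It was called lower in C1M (log2 fold change -0.59, SE 0.16, FDR 0.00285) and C1H (-0.56, SE 0.16, FDR 0.00456), although C1 replicate 4 lay within both groups. In C1T it was 525, 536, 728 and 534 CPM, 18.7-fold above C1 (4.23, SE 0.11, FDR 6.29e-50). The constant groups read 537, 549, 560.1 and 476 CPM in C1MDT and 459, 519, 588 and 533 in C1HDT, overlapping C1T. The withdrawn groups read 219, 245, 234 and 271 CPM in C1MV and 279.9, 266, 265 and 267 in C1HV, all below C1T. Against C1T the log2 fold change was -1.27 in C1MV (2.41-fold lower, FDR 3.77e-22) and -1.11 in C1HV (2.15-fold lower, FDR 6.34e-19), while it was -0.13 (SE 0.082, FDR 0.232) in C1MDT and -0.15 (SE 0.082, FDR 0.168) in C1HDT. Constant exceeded withdrawn induction 2.20-fold in the middle fraction (1.14, SE 0.086, FDR 7.47e-19) and 1.95-fold in the high fraction (0.96, SE 0.086, FDR 3.70e-15). The constant groups also had dox and TMP in the medium during these 4 days, C1T had TMP and the withdrawn groups had DMSO, so the agents and β-catenin cannot be told apart here. The test of whether the difference between constant and withdrawn groups itself differed between the fractions called no member (0 by edgeR, 2 at an unadjusted p below 0.05, 0 by DESeq2; 0.00% of all genes). The rise from day 0 was smaller than in C1 to C1T for C1MV (log2 difference -0.68, FDR 0.00288) and for C1HV (-0.55, FDR 0.0185). The C1HV difference was not called without C1 replicate 4 (-0.41), C1H replicate 1 (-0.49), C1H replicate 2 (-0.47) or C1T replicate 3 (-0.41). The C1MDT difference of 0.46 lay at the threshold (FDR 0.05 when rounded) and was not called without C1 replicate 1, 2 or 3, C1M replicate 1, 2 or 4, C1T replicate 1, 2 or 4, or C1MDT replicate 1, 2 or 3 (0.38 to 0.47). It was also not called with RLE size factors (FDR 0.0577), library size only (FDR 0.0619), DESeq2 (FDR 0.0598) or a minimum of 1 CPM in all libraries (FDR 0.052). The C1HDT difference was 0.41 (FDR 0.0797), and it was called without C1 replicate 4 (0.55), C1H replicate 2 (0.49), C1T replicate 3 (0.54) or C1HDT replicate 1 (0.47). With a library left out it ran from 0.29 to 0.55 (highest FDR 0.258).

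Dnmt3l rose at day 4 in every group to a level that differed little between groups. It read 13.0, 17.0, 23.9 and 12.9 CPM in C1, 9.76, 10.3, 20.9 and 7.42 in C1M, and 8.51, 9.76, 11.3 and 7.14 in C1H. The C1H libraries lay below those of C1 (log2 fold change -0.83, SE 0.26, FDR 0.015), and without C1 replicate 3 this was -0.61 (FDR 0.0759). In C1M the log2 fold change was -0.40 (FDR 0.245), and -0.83 (FDR 0.00171) without C1M replicate 3. With a library left out Dnmt3l ran from -0.83 to -0.18 there (highest FDR 0.65). At day 4 it read 373, 393, 311 and 316 CPM in C1T, 409.8, 456, 376 and 369 in C1MV, and 383, 355, 391 and 424 in C1MDT. In the high fraction it read 378, 349, 401 and 355 CPM in C1HV and 465, 433, 370.5 and 439 in C1HDT. C1T was 21.2-fold above C1 (4.40, SE 0.16, FDR 7.44e-25). All 5 groups overlapped, and the log2 fold changes against C1T were 0.21, 0.15 and 0.09 in C1MV, C1MDT and C1HV, none of them called (FDR 0.136, 0.276 and 0.595). C1MV was called without a filter on low counts (0.22, FDR 0.0244) and with only the groups compared (0.22, FDR 0.0287). Only C1HDT was called (0.29, SE 0.10, FDR 0.0273), and not without C1T replicate 3 (0.25), C1T replicate 4 (0.26), C1HDT replicate 1 (0.25), C1HDT replicate 2 (0.29) or C1HDT replicate 4 (0.28). Constant and withdrawn induction differed by -0.06 (SE 0.10, FDR 0.804) in the middle and 0.20 (SE 0.10, FDR 0.206) in the high fraction. Aire, a gene on the opposite strand that overlaps Dnmt3l, held 340 reads in all 32 libraries together.

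**Figure D1:**
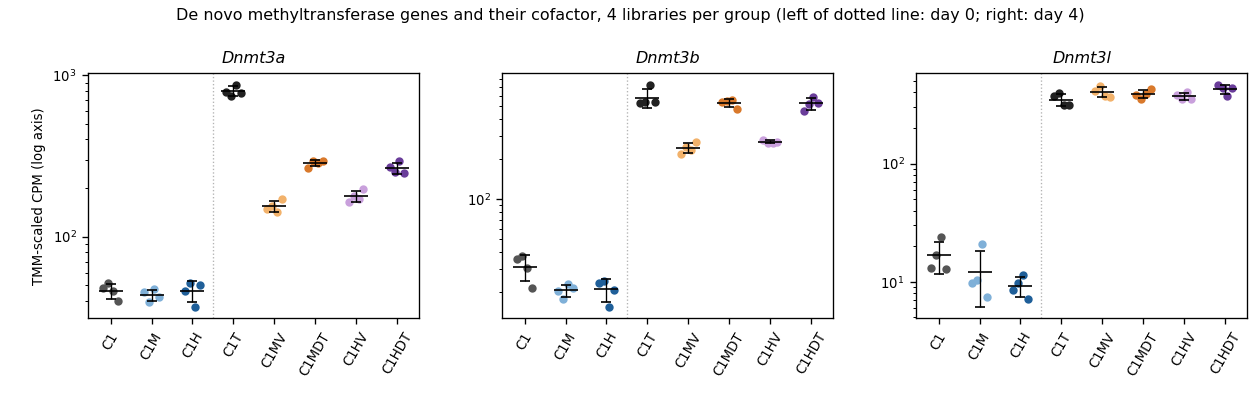
Level of Dnmt3a, Dnmt3b and Dnmt3l in each library, in CPM scaled by TMM factors on a log axis, for the 8 groups. Points are libraries, and the bar and whiskers are the mean ± SD of 4. Dnmt3a was 747 to 875 CPM in C1T against 143 to 294 in the other day 4 groups, Dnmt3b split the withdrawn (219 to 279.9) from the constant groups (459 to 588), and Dnmt3l overlapped in all day 4 groups.

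Marker genes moved beside these differences. At day 4 the naive markers summed to 454 to 586 CPM in C1T, 875 to 1188 in the withdrawn groups and 338 to 489 in the constant groups. All 7 naive markers were called higher in C1MV and in C1HV against C1T, where 15.4% and 13.7% of all genes were called higher. In the constant groups, where Dnmt3a was also below C1T, none of the 7 was called higher, and 4 were called lower in C1MDT and 2 in C1HDT. Of all genes, 16.9% and 17.4% were called higher there and 16.5% and 16.1% lower. Epiblast markers (Fgf5, Pou3f1, Otx2 and Sox3) summed to 573 to 681 CPM in C1T, 332 to 442 in the withdrawn groups and 470.1 to 594 in the constant groups. Endoderm markers (Gata4, Gata6, Sox17, Sox7 and Foxa2) summed to 3.26 to 11.2 CPM in C1T and 77.4 to 138 in the other 4 groups, with all 5 called higher in each (13.7% to 17.4% of all genes). Neural markers summed to 172 to 206 CPM in C1T and 205 to 278 in the other groups. Mesoderm markers stayed at 10.8 to 26.9 CPM at day 4, and general pluripotency markers (Pou5f1, Sox2, Utf1 and Zfp281) at 875 to 997 CPM in C1T, 603 to 828 in the withdrawn groups and 477 to 582 in the constant groups. In bulk RNA a smaller share of cells with a transcript and less transcript per cell cannot be told apart, and the part of cell composition in the differences of the methylation genes was not tested. S phase genes, which mark replicating cells, summed to 2969 to 3437 CPM in C1, 2860 to 2951 in C1M, 2743 to 2792 in C1H and 3233 to 3717 at day 4. Of the 13 genes, 2 were called higher and 2 lower in C1M against C1, and 0 higher and 2 lower in C1H (12.0% and 12.1% of all genes were lower). The part of these genes in the lower Uhrf1 and Dnmt1 of C1M and C1H was not tested.

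**Figure D2:**
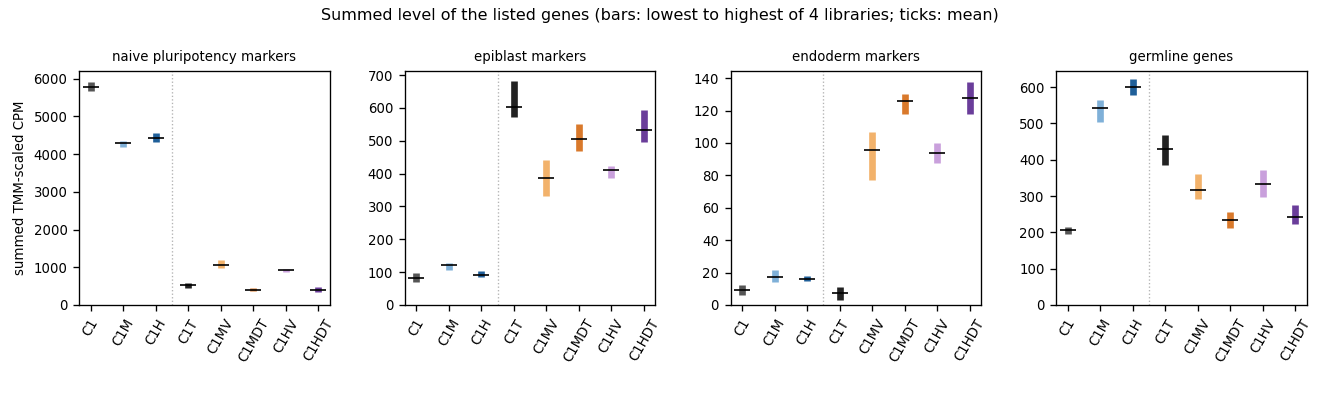
Summed CPM of naive, epiblast and endoderm markers and of germline genes in each group. Coloured bars run from the lowest to the highest of 4 libraries and ticks mark the mean. Among day 4 groups the withdrawn groups held the most naive transcript (875 to 1188 CPM), C1T the least endoderm transcript (3.26 to 11.2), and C1T the most germline transcript (385 to 469).

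Tet1 fell in steps, from C1 to the other day 0 groups and C1T and then to the 4 day 4 groups with a history of induction. It read 1005, 1026, 909.9 and 931 CPM in C1, 599.9, 500.3, 669.9 and 626 in C1M, and 688, 696, 696 and 726 in C1H. Induced cells were 1.62-fold lower in C1M (log2 fold change -0.69, SE 0.075, FDR 4e-13) and 1.38-fold lower in C1H (-0.47, SE 0.075, FDR 2.61e-07). C1H lay above C1M in every library, but the difference (0.23, SE 0.075) had an FDR of 0.10. It was called when only these 2 groups were fitted (0.24, FDR 0.00547) and without C1M replicate 3 (0.29, FDR 0.0427). With a library left out it ran from 0.15 to 0.29 (highest FDR 0.51). At day 4 Tet1 read 699, 637, 655 and 573 CPM in C1T, 303, 279, 294 and 392 in C1MV, and 225, 259.8, 271 and 289 in C1MDT. In the high fraction it was 275, 343, 324 and 316 CPM in C1HV and 238, 269, 256 and 236 in C1HDT. All 16 libraries with a history of induction lay below the lowest C1T library. Against C1T it was lower by 2.04-fold in C1MV (-1.03, SE 0.079, FDR 1.56e-21), 2.44-fold in C1MDT (-1.29), 2.04-fold in C1HV (-1.03) and 2.58-fold in C1HDT (-1.36). Constant induction went with a lower level than withdrawal in the high fraction (-0.34, SE 0.082, FDR 0.00123). The middle fraction gave -0.26 (FDR 0.0197), and this was not called without C1MV replicate 4 (-0.15, FDR 0.234) or C1MDT replicate 1 (-0.20, FDR 0.115). The fall from day 0 exceeded that of C1 to C1T, with log2 differences of -0.60 in C1MDT (FDR 5.53e-06), -0.56 in C1HV (FDR 2.17e-05) and -0.90 in C1HDT (FDR 3.07e-11). In C1MV it was -0.34 (FDR 0.0139), not called without C1M replicate 3 (-0.28), C1T replicate 1 (-0.29) or C1MV replicate 2 (-0.28).

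Tet2 was the member that fell most at day 4. Its group means at day 4 had the same order as those of Tet1, but Tet1 libraries separated C1T from the other groups and Tet2 libraries separated the constant groups from the rest. It read 498, 452, 447 and 424 CPM in C1, 272, 253, 270.4 and 234 in C1M, and 267, 282, 252 and 265 in C1H. The induced groups were lower by 1.77-fold (log2 fold change -0.82, SE 0.088, FDR 6.08e-13) and 1.71-fold (-0.77, SE 0.088, FDR 6.29e-12), with no overlap with C1. At day 4 C1T held 56.1, 44.5, 31.9 and 35.9 CPM, 10.7-fold below C1 (-3.42, SE 0.11, FDR 5.70e-48). The withdrawn groups read 43.9, 35.6, 25.1 and 34.2 CPM in C1MV and 27.4, 35.8, 27.9 and 33.8 in C1HV. The constant groups read 21.9, 12.5, 13.9 and 13.8 CPM in C1MDT and 14.6, 10.0, 17.6 and 19.06 in C1HDT, below every library of the other day 4 groups. Against C1T Tet2 was 2.84-fold lower in C1MDT (-1.51, SE 0.16, FDR 1.73e-13) and 2.72-fold lower in C1HDT (-1.44, SE 0.16, FDR 9.34e-13). C1MV did not pass (-0.30, SE 0.14, FDR 0.109), except without C1T replicate 3 (-0.40, FDR 0.0262) or C1MV replicate 1 (-0.44, FDR 0.017). With a library left out its value ran from -0.44 to -0.13 (highest FDR 0.596). C1HV passed (-0.46, FDR 0.0143) but not without C1T replicate 1 (-0.28, FDR 0.194), C1T replicate 2 (-0.41), C1HV replicate 1 (-0.40) or C1HV replicate 3 (-0.40), or with library size only (-0.38, FDR 0.051). Constant induction was 2.31-fold below withdrawal in the middle fraction (-1.21, SE 0.16, FDR 7.33e-09) and 1.98-fold below it in the high fraction (-0.99, SE 0.17, FDR 5.55e-06). Thus Dnmt3b and Tet2 both separated constant from withdrawn groups, in opposite directions.

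Tet3 stayed between 3.78 and 12.2 CPM in all 32 libraries, from 8 to 34 reads, and its groups overlapped except that C1HDT lay below C1, C1M, C1T and C1HV. The C1HDT libraries read 5.44, 3.82, 5.02 and 5.11 CPM against 7.19, 5.83, 7.62 and 6.52 in C1T, with a log2 fold change of -0.46 (SE 0.34, FDR 0.312). The call against C1H (-0.73, FDR 0.0362) was lost without C1H replicate 1 (-0.67), 2 (-0.72) or 3 (-0.56) or C1HDT replicate 2 (-0.65), 3 (-0.74) or 4 (-0.76). Tdg, the glycosylase gene, held only 1 to 13 reads per library (0.42 to 5.44 CPM), near the value of 3 reads, and was called in no comparison. Its log2 fold change was 1.18 in C1HDT against C1H (FDR 0.0573), and this was called without C1H replicate 2 (1.47, FDR 0.0401) or C1HDT replicate 2 (1.44, FDR 0.023), and with only the groups compared (1.19, FDR 0.0405). With a library left out Tdg ran from 0.83 to 1.47 there (highest FDR 0.254). Of the 100-base stretches in the last 500 bases of its coding transcripts, 40.3% also occur in transcripts of other genes on the same strand, all of them processed pseudogenes (Tdg-ps, Gm5597, Gm9855 and AC122846.1). The share was 53.7% with the opposite strand, where Glt8d2, which held 34 reads in all libraries together, covers the 3′ end of Tdg. Reads from such stretches can align to several places, and reads without a unique place are tallied apart from the genes. The share was 0.0% for 8 of the other members and 0.8% for Tet1.

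**Figure D3:**
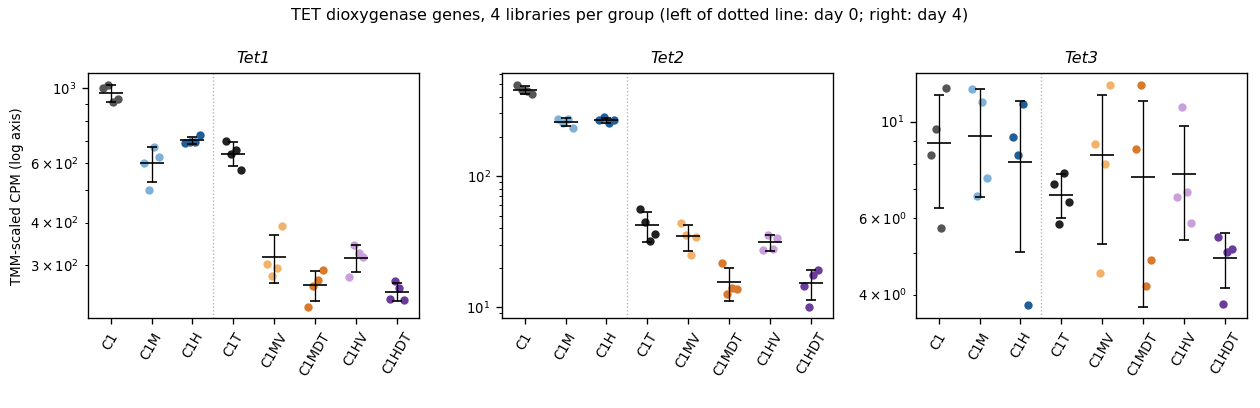
Level of Tet1, Tet2 and Tet3 in each library, in CPM scaled by TMM factors on a log axis, for the 8 groups. Points are libraries, and the bar and whiskers are the mean ± SD of 4. Tet1 stood at 573 to 699 CPM in C1T and 225 to 392 in the other day 4 groups, while Tet2 was lowest in the constant groups (10.0 to 21.9 CPM).

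The maintenance genes Uhrf1 and Dnmt1 were highest in C1, and Uhrf1 was below C1 in every library of every other group. Uhrf1 read 375, 311, 279.6 and 282 CPM in C1, 159, 157, 168 and 148 in C1M, and 148, 130.0, 128 and 182 in C1H. It was 1.98-fold lower in C1M (log2 fold change -0.98, SE 0.11, FDR 2.57e-09) and 2.13-fold lower in C1H (-1.09, SE 0.11, FDR 1.94e-10), the largest log2 change of the 10 members at day 0. In C1T it read 159, 152, 155 and 184 CPM, 1.93-fold below C1 (-0.95, SE 0.11, FDR 1.79e-09), overlapping C1M and C1H. The remaining groups read 120.5, 84.3, 97.4 and 138 CPM in C1MV, 103, 133, 121 and 122 in C1MDT, 108, 139.9, 127 and 124 in C1HV, and 141, 105, 109.7 and 115 in C1HDT. All 16 of these libraries lay below the lowest C1T library. Against C1T the log2 fold changes were -0.58 (FDR 0.000196), -0.43 (FDR 0.00416), -0.38 (FDR 0.0179) and -0.45 (FDR 0.00268) in that order. The C1HV call was lost without C1T replicate 4 (-0.30) or C1HV replicate 1 (-0.31) and with library size only (-0.30, FDR 0.0544). From day 0 to day 4 the log2 fold change of Uhrf1 was -0.55 in C1MV (FDR 0.000185), -0.40 in C1MDT (FDR 0.004) and -0.31 in C1HDT (FDR 0.0236), and -0.23 in C1HV, which was not called (FDR 0.109). The C1HDT call was lost without C1H replicate 4 (-0.20) or C1HDT replicate 2 (-0.26), 3 (-0.27) or 4 (-0.30). The C1HV change was called without a filter on low counts (FDR 0.0266), with only the groups compared (FDR 0.0348) and without C1H replicate 3 (-0.29, FDR 0.049). With a library left out it ran from -0.29 to -0.12 (highest FDR 0.396). Compared with the change from C1 to C1T, the log2 differences were 0.55 in C1MDT (FDR 0.00943), 0.72 in C1HV (FDR 0.00111) and 0.64 in C1HDT (FDR 0.00249), and 0.40 (FDR 0.0791) in C1MV. The C1MV difference was called without a filter on low counts (FDR 0.013), with only the groups compared (FDR 0.0221), and without C1 replicate 3 (0.45), C1T replicate 4 (0.47) or C1MV replicate 2 (0.51). With a library left out it ran from 0.30 to 0.51 (highest FDR 0.172).

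Dnmt1 moved by less, with day 0 libraries at 222, 226, 168 and 182 CPM in C1, 152, 156, 136 and 147 in C1M, and 173, 154, 148 and 159 in C1H. It was 1.35-fold lower in C1M (log2 fold change -0.43, SE 0.087, FDR 2.82e-05) and 1.26-fold lower in C1H (-0.33, SE 0.087, FDR 0.00164). At day 4 it was 166, 160.2, 167 and 188 CPM in C1T, and the call against C1 (-0.23, FDR 0.0202) was lost without C1 replicate 1 (-0.19) or 2 (-0.17) or C1T replicate 1 (-0.22) or 2 (-0.21). It read 147, 119.9, 130.1 and 112 CPM in C1MV, 131, 131, 137 and 136 in C1MDT, and 132, 106, 114 and 121 in C1HDT, all below C1T. Against C1T these 3 groups were lower by 1.32-fold (-0.40, FDR 0.000142), 1.26-fold (-0.34, FDR 0.0012) and 1.43-fold (-0.52, FDR 7.23e-07). C1HV, at 131, 157, 129.9 and 161 CPM, overlapped C1T (-0.24, FDR 0.0409), and this call ended in 6 of 8 refits without 1 library (C1T replicates 1, 2, 3 and 4 and C1HV replicates 1 and 3, -0.25 to -0.17), under DESeq2 (FDR 0.0613), with library size only (-0.16, FDR 0.191) and without a filter on low counts (FDR 0.0668). C1HDT was below C1HV (-0.28, FDR 0.0235), which was lost without C1HV replicate 2 (-0.24) or 4 (-0.23) or C1HDT replicate 2 (-0.23) or 3 (-0.26).

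Uhrf2 ran opposite to Uhrf1: it was lowest in C1, at 24.8, 22.6, 18.2 and 17.7 CPM, and rose with differentiation. C1M read 27.6, 22.7, 27.7 and 22.7 CPM and C1H read 25.9, 29.3, 27.8 and 26.5, and neither was called (FDR 0.235 and 0.0646). C1H was called with library size only (0.47, FDR 0.0212), with a minimum of 1 CPM in all libraries (FDR 0.0385) and without C1 replicate 1 (0.49, FDR 0.0394). Its log2 fold change ran from 0.32 to 0.49 with a library left out (highest FDR 0.194). C1T held 25.4, 32.5, 32.9 and 33.3 CPM, 1.48-fold above C1 (log2 fold change 0.57, SE 0.17, FDR 0.00263). From day 0 it also rose in C1MV (0.45), C1MDT (0.51), C1HV (0.62) and C1HDT (0.63), with FDR between 5.49e-05 and 0.00956. The groups from the high fraction stood above C1T, at 37.7, 39.8, 49.5 and 40.3 CPM in C1HV (0.44, FDR 0.0172) and 49.3, 39.1, 40.6 and 39.5 in C1HDT (0.45, FDR 0.00927). C1HV was not called without C1T replicate 1 (0.36) or C1HV replicate 3 (0.34), nor C1HDT without C1T replicate 1 (0.37) or C1HDT replicate 1 (0.36). The middle fraction read 32.2, 33.7, 35.96 and 35.6 CPM in C1MV and 28.8, 35, 39.9 and 37.5 in C1MDT, with log2 fold changes of 0.15 (SE 0.15) and 0.21 (SE 0.15) against C1T, and the test between fractions did not pass (FDR 0.645 and 0.942).

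**Figure D4:**
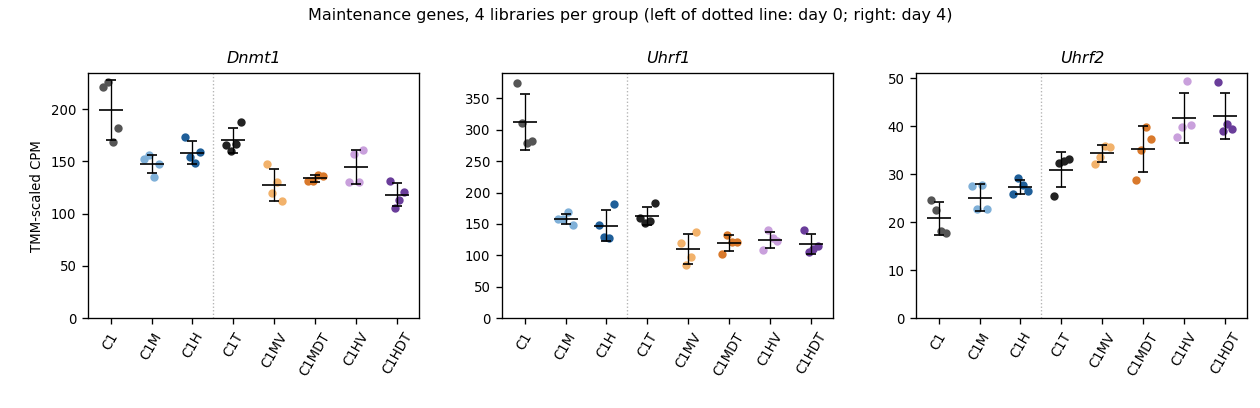
Level of Dnmt1, Uhrf1 and Uhrf2 in each library, in CPM scaled by TMM factors on a linear axis from 0, for the 8 groups. Points are libraries, and the bar and whiskers are the mean ± SD of 4. Uhrf1 was 279.6 to 375 CPM in C1 and 84.3 to 184 in all other groups, and Uhrf2 was lowest in C1 (17.7 to 24.8 CPM).

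**Figure D5:**
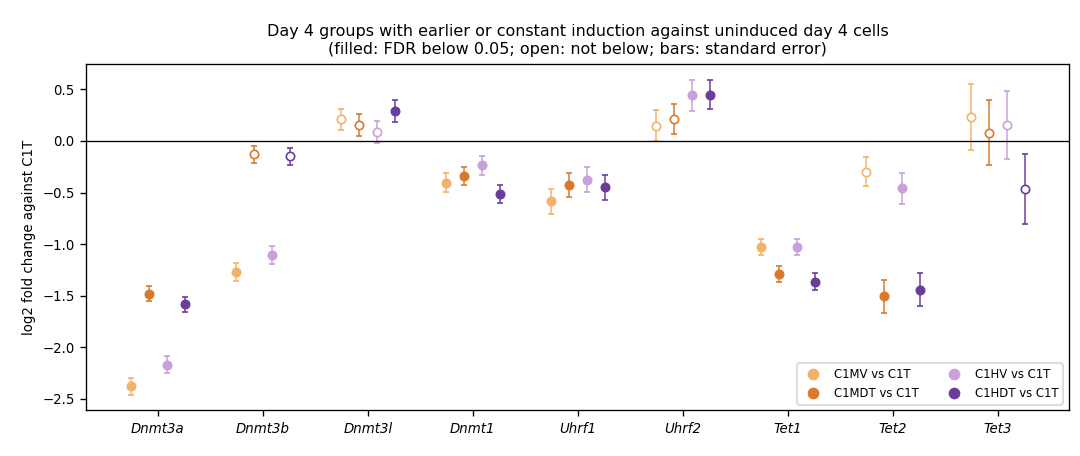
Log2 fold change of 9 members in each day 4 group with a history of induction against C1T (Tdg is left out for its low counts). Points are edgeR estimates, whiskers their standard error, and filled points have an FDR below 0.05. Dnmt3a, Tet1, Dnmt1 and Uhrf1 were lower in all 4 groups, Dnmt3b in the withdrawn groups (-1.27 and -1.11), and Tet2 most in the constant groups (-1.51 and -1.44).

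The levels of the members over the 32 libraries were also compared by Pearson's r of log2 CPM, as a description: the libraries share 8 groups and the same line, so the values follow differences between groups. All day 4 libraries lay above all day 0 libraries for Dnmt3a, Dnmt3b and Dnmt3l and below them for Tet2, while the days overlapped for the other members. How many of all genes separate the days in this way was not counted, so this is not set apart from the background. Dnmt3a with Dnmt3b gave 0.94, Dnmt3b with Dnmt3l 0.97, Tet1 with Tet2 0.88 and Dnmt1 with Uhrf1 0.82. Dnmt3b with Tet2 gave -0.94 and Dnmt3l with Tet2 -0.94. Among 7332 other genes, those with the pattern most like Dnmt3a were Car2 (0.98), Utf1 (0.98) and Srm (0.98). Dnmt3b was closest to Tuba1a, Dusp6 and Mif (0.99, 0.98 and 0.98) and Dnmt3l to Lin28a, Col18a1 and Vim (0.99, 0.99 and 0.99). Tet1 was closest to Ncor1, Trip12 and Luc7l2 (0.99, 0.98 and 0.98), and Tet2 to Kat6b, Calcoco2 and Suz12 (each 0.98). Uhrf1 was closest to Aff4, Ncbp2 and Rundc1 (0.91, 0.89 and 0.89), Dnmt1 to Eif3a, Aff4 and Ddx10 (each 0.87), and Uhrf2 to Rassf3, Pdpn and Gng2 (each 0.88). Tet3 had no close match, with Faf2, Matr3 and Ddx11 at 0.65, 0.60 and 0.59.

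Other genes of the pathway were followed from lists. Among 12 genes that target or control de novo methylation, 11 were called in C1T against C1, 4 higher and 7 lower (median log2 fold change -0.43 against 0.01 over all genes). Kdm2b, a histone demethylase that binds unmethylated CpG islands, rose (1.42, FDR 4.67e-29), and Prdm14, a repressor of the de novo genes in naive cells, fell (-3.47, FDR 4.90e-26). Against C1T this list was called lower for 6 genes (C1MV), 8 (C1MDT), 5 (C1HV) and 9 (C1HDT) and higher for 1 in each. Over all genes the shares called lower were 14.9%, 16.5%, 14.3% and 16.1%. Zfp57, which keeps methylation at imprinted loci, was lower in each, at -1.53, -2.25, -1.38 and -2.35 (FDR 4.42e-20 in C1MDT). Ehmt2, a histone H3K9 methyltransferase, was the gene called higher, at 0.46, 0.75, 0.32 and 0.70. Among 6 maintenance partners, 4 rose and 1 fell in C1T against C1. Cdca7, a partner of the remodeller HELLS, rose (1.10, FDR 4.15e-16), and Usp7, a deubiquitinase that acts on UHRF1 and DNMT1, fell (-0.27, FDR 0.000481). Hells itself was lower in C1MDT (-0.47) and C1HDT (-0.51) than in C1T. Of 8 methyl-CpG readers and their relatives, 2 rose and 3 fell in C1T against C1. In that comparison 24.4% of all genes were called higher and 24.9% lower, so the shares called in the lists of readers, TET partners and methyl donors lay near the background. Mbd3, a subunit of the NuRD complex, rose (1.05) and Zbtb38 fell (-1.11).

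Of 16 tested partners of TET enzymes and base excision repair, 5 rose and 5 fell in C1T against C1. Gadd45g and Gadd45b, stress-response genes linked to DNA demethylation, were named for the largest rise and the largest fall in this list. Their opposite signs follow from that rule: Gadd45g rose (5.90, FDR 5.75e-27) and Gadd45b fell (-5.37, FDR 3.69e-44). Against C1T, Gadd45g was lower in C1MV (-2.26), C1HV (-2.45), C1MDT (-1.70) and C1HDT (-1.69), and Gadd45b was higher (2.63, 2.85, 2.58 and 2.92). At day 0, 5 of the 16 were called higher and 2 lower in C1M against C1 (14.3% and 12.0% of all genes). In C1H against C1, 3 were called higher and 3 lower (13.8% and 12.1% of all genes). Ogt, whose product binds TET proteins, was higher (0.73, FDR 1.53e-10), and Gadd45b was lower (-1.01, FDR 5e-10). Of 16 genes that supply methyl groups or 2-oxoglutarate, the TET cosubstrate, 5 rose and 5 fell in C1T against C1. Idh2, which makes 2-oxoglutarate in mitochondria, fell in C1T (-1.67, FDR 4.56e-29) and was higher than C1T in C1MV (1.58), C1HV (1.37), C1MDT (0.84) and C1HDT (1.05).

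Germline genes with methylated promoters are silenced by DNA methylation in somatic cells, and 13 of 14 were called higher at day 0 in C1M and in C1H against C1, with median log2 fold changes of 1.45 and 1.80 against 0.06 and 0.04 over all genes. The shares of all genes called higher there were 14.3% and 13.8%. Their sum was 195 to 216 CPM in C1, 503 to 565 in C1M and 577 to 622 in C1H. Sycp1, a synaptonemal complex gene, rose in C1H (3.09, FDR 1.01e-24). At day 4 the sum was 385 to 469 CPM in C1T, 292 to 372 in the withdrawn groups and 212 to 275 in the constant groups. In C1T against C1, 9 of the 14 were called higher (median 1.04), where 24.4% of all genes were called higher. Mael, a piRNA pathway gene, stood at 3.22 (FDR 7.72e-20). Against C1T, 4 of 14 were called lower with C1MV, 7 with C1MDT, 5 with C1HV and 5 with C1HDT, where 14.9%, 16.5%, 14.3% and 16.1% of all genes were called lower. Sycp1 fell in all 4 (-1.49, -2.03, -1.45 and -1.98). Sycp3, another synaptonemal complex gene, was the gene called higher in C1MV (0.74, FDR 6.96e-06) and C1HV (1.04, FDR 3.56e-10). These lists were chosen with earlier results known, carry no test of their own, and whether methylation at these promoters changed was not measured.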

How the data were processed

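RNA was read as 3′ QuantSeq libraries, single-end, from 8 groups of 4. The authors deposited a table of read counts per gene from uniquely aligned reads, made by trimming with bbduk, aligning to mm10 with STAR and counting with htseq-count. The strand setting is not given in the sources used here. Counts were tested with edgeR 4.0.16 (R 4.3.3): TMM scaling, a filter that kept genes reaching 1 CPM in 4 or more libraries, and 1 quasi-likelihood fit over all 32 libraries, with Benjamini-Hochberg FDR over 15280 genes and a threshold of 0.05. Log2 CPM used a prior count of 2. Refits used DESeq2 1.42.0, other scalings and filters, only the groups compared, the replicate number as a block, and each library left out. Counts were also simulated for C1M against C1 over 15280 genes. There edgeR recovered 87.8% of genes changed by 1 on the log2 scale and 100% of those changed by 2, with 5.03% of calls false. Only 200 genes were changed, drawn above a minimum mean level that Tdg did not reach, and all others were left equal. Smaller changes were not simulated. The members and lists were chosen with earlier results of these data known. Named list genes were those called with the largest rise or fall per list, at a mean log2 CPM of at least 3 and without overlap of libraries. Start windows came from RefSeq (GRCm38.p6).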

Additional observations from a re-analysis of the deposited data

Results flagged for a closer look

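A library stood far from the other 3 of its group, by Dixon's criterion, in 6 of 80 member and group pairs, where chance alone marks about 1 in 20. These were Dnmt3b in C1T replicate 3 (727.6 CPM) and C1HV replicate 1 (279.9 CPM), Uhrf2 in C1T replicate 1 (25.42 CPM) and C1HDT replicate 1 (49.29 CPM), Tet2 in C1MDT replicate 1 (21.91 CPM), and Tdg in C1 replicate 3 (3.113 CPM).

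The change from day 0 to day 4 differed from that of C1 to C1T in 19 tests of the difference itself by edgeR, out of 10 members in each of 4 comparisons, where 22.5%, 24.4%, 21.9% and 25.2% of all genes were called for C1MV, C1MDT, C1HV and C1HDT. These tests share the C1 and C1T libraries, and each difference is the gap to C1T at day 4 less the gap to C1 at day 0. Dnmt3a rose less in C1MV (-2.30), C1MDT (-1.40), C1HV (-2.17) and C1HDT (-1.58), all as log2 differences. Tet1 fell more in C1MV (-0.34), C1MDT (-0.60), C1HV (-0.56) and C1HDT (-0.90). Dnmt3b rose less in C1MV (-0.68) and C1HV (-0.55), and its difference was 0.46 in C1MDT, at the threshold and lost under DESeq2, RLE size factors, library size only and a minimum of 1 CPM in all libraries (0.44 to 0.45). Tet2 fell less in C1MV (0.53) and more in C1MDT (-0.68) and C1HDT (-0.67). The Tet2 call in C1MV was lost without C1T replicate 3 (0.42) or C1MV replicate 1 (0.38). The Uhrf1 difference was 0.55 in C1MDT, 0.72 in C1HV and 0.64 in C1HDT. Uhrf1 was already below C1 at day 0 in C1M (-0.98) and C1H (-1.09). At day 4 it was below C1T in these 3 groups (-0.43, -0.38 and -0.45). Dnmt3l rose more in C1HV (0.92) and C1HDT (1.12), and the former was lost without C1 replicate 3 (0.70). Most of this lay at day 0, where C1H was below C1 (-0.83). At day 4 the gap to C1T was 0.09 in C1HV and 0.29 in C1HDT. The Dnmt3l difference in C1MV (0.61, FDR 0.0999) and C1MDT (0.55, FDR 0.134) was not called by edgeR. It was called by DESeq2 (FDR 0.0303 and 0.0498), without a filter on low counts (FDR 0.0155 and 0.0323) and without C1M replicate 3 (1.04 and 0.99). With a library left out it also fell to 0.39 in C1MV (highest FDR 0.317) and 0.33 in C1MDT (highest FDR 0.394).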

How the results depend on the processing

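Of 210 pairs of a member and a comparison, 100 were called, and 0 of these changed direction in any refit. Of the 110 not called, 14 were called in at least 1 refit and 38 changed direction in at least 1. Among these, Dnmt3b in C1MDT against C1T was 0.02 without C1T replicate 3, Dnmt3l in C1MDT against C1MV was 0.01 without C1MV replicate 2, and Dnmt3a in C1H against C1 ran from -0.07 to 0.09. Of the 100 called, 100 stayed called with only the groups compared, 99 with RLE size factors, 99 with at least 1 CPM in all libraries, 99 without a filter, 98 with DESeq2 and 96 with library size only. The count of members called in C1HV against C1T was 4 with library size only and 4 to 7 when a library was left out. In C1H against C1M it was 1 with only the groups compared and 0 to 1 with a library left out. Library size only raised the share of higher calls among all genes from 54.35% to 64.52% in C1M and from 53.37% to 66.41% in C1H against C1. It did so from 49.05% to 59.37% in C1HV against C1T, and lowered it from 56.79% to 45.2% in C1HDT against C1HV. All genes called in C1H against C1M numbered 271, or 570 with only these groups fitted. The replicate numbers did not pair the libraries (mean correlation of deviations -0.00163, and 7 of 32 libraries closest to their own number), and a replicate block kept 100 of 100 calls. Tet3 and Tdg held few reads, at 8 to 34 and 1 to 13 per library. For Tdg, low depth and the loss of reads without a unique place cannot be told apart.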
